A study of Homo sapiens with 14 samples.

Results

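The genes described here encode subunits of the Polycomb repressive complexes, and they were chosen by gene name from the deposited table: *EZH1*, *EZH2*, *SUZ12*, *JARID2*, *BMI1*, *RNF2*, *RING1*, *CBX2*, *CBX7*, and *CBX8*. All 10 were found among the 19410 rows of the table, and all 10 passed the filter on low values. RNA-Seq was performed on MDA-MB-231 cells, an established human triple-negative breast cancer line, and on 6 lines derived from it with CRISPR/Cas9. The first pair, SAP30-KO1 and SAP30-KO2, was targeted in *SAP30*, a subunit gene of the SIN3 histone deacetylase complex. The next pair, SIN3A/3B-DKO1 and -DKO2, was targeted in both SIN3 scaffold genes, *SIN3A* and *SIN3B*. These 4 lines are called SIN3 complex lines below. The last pair, MLL1-KO1 and -KO2, was targeted in *KMT2A* (MLL1), which encodes a histone H3 lysine 4 methyltransferase. Wherever 6 values are listed they follow this order of lines. Parental cells were unedited, the labels name no treatment, and each of the 7 conditions had 2 libraries. By the study's methods, cells given guide vectors were selected with puromycin while the lines were made, and no such step is described for parental cells. Selection and expansion went together with the edit, so they cannot be told apart in comparisons with parental cells. By the study's methods each edited line was a mixture of expanded single knockout cells, so a line is not 1 clone, and the study lists 1 guide each for *SIN3A* and *SIN3B*. The study's statistics section speaks of biological samples or experiments, but neither it nor the labels state whether the 2 libraries of a condition came from separate cultures, so every p-value measures the spread between these libraries, which may be technical. All 6 lines were compared with the same 2 parental libraries.

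Polycomb repressive complex 2 (PRC2) methylates histone H3 on lysine 27. Its catalytic subunit is EZH2 or the less active paralog EZH1, SUZ12 and EED hold the complex together, and JARID2 is an accessory subunit that helps to bring it to chromatin. Polycomb repressive complex 1 (PRC1) ubiquitinates histone H2A through the RING proteins RNF2 and RING1, each paired with a PCGF protein such as BMI1, and in canonical PRC1 a CBX protein binds methylated lysine 27. Trithorax proteins, among them MLL1, are known for opposing Polycomb silencing at developmental genes.

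Promoter sequence is shown for the 3 genes that moved most, *SUZ12*, *JARID2*, and *CBX7*, so that the letters upstream of their starts can be read beside their RNA levels. The RefSeq promoter table for GRCh38.p14 held 11 start sites of 8 of the 10 genes, and none was matched for *CBX2* and *CBX8*. Each window is the 250 bases just before a start, printed 5′ to 3′ on the gene's strand, and capitals mark matches on either strand to an E2F motif (TTTCGCGC, TTTGGCGC, or TTTCCCGC), a CCAAT box (CCAAT), or a cAMP response element (TGACGTCA), none of which overlap here.
SUZ12, chr17:31936757-31937006, plus strand: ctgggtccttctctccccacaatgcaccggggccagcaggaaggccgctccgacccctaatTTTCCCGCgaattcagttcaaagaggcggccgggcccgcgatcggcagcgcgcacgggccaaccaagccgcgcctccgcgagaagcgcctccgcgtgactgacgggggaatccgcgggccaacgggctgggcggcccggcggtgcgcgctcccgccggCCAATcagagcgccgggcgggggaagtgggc
JARID2, upstream start, chr6:15245819-15246068, plus strand: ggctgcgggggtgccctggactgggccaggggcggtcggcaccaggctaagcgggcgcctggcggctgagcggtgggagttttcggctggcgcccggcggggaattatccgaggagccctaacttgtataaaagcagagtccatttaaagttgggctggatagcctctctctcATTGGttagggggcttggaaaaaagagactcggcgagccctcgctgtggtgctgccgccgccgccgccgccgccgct
JARID2, downstream start, chr6:15248605-15248854, plus strand: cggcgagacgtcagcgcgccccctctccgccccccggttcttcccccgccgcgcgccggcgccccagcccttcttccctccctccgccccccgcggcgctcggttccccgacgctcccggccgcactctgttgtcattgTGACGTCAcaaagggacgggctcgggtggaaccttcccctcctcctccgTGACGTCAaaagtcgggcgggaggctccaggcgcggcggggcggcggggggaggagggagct
CBX7, chr22:39152681-39152930, minus strand: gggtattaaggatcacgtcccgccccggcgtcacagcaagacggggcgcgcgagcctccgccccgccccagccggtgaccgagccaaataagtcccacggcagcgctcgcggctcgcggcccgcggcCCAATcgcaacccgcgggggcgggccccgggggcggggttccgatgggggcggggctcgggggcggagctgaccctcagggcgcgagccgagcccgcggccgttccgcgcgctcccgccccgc

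The *SUZ12* window held 1 E2F match, which began at position -189 counted from the start, and 1 CCAAT box at -31. The upstream *JARID2* window held 1 CCAAT box, read on the opposite strand, at -77, whereas the downstream one held 2 cAMP response elements, at -111 and -62. The *CBX7* window held 1 CCAAT box at -123. Of all 35116 windows of this length in the table, 2.32% held an E2F match, 32% a CCAAT box, and 1.65% a cAMP response element. An ETS motif (CCGGAAG), held by 8.52% of all windows, was also searched and matched none of the 11 windows of these genes. Among the windows not printed, only 1 window of *EZH2* held a match, with 4 CCAAT boxes. The windows of all 8 genes were rich in G and C, from 65.6% in the upstream *JARID2* window to 91.6% in 1 of the 2 *BMI1* windows, against a median of 58% over all windows. These matches describe the letters only, and binding was not measured here.

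Libraries held 18415036 to 23162682 reads, recovered from the steps of the deposited values, and levels are given as TPM, a relative transcript abundance (transcripts per 1000000) that takes gene length into account. MDA-MB-231 markers were at high levels in every library, with *VIM* at or above 5741 TPM, while *ESR1* stayed at or below 0.191 TPM. *SAP30* was 78.9 and 82.8 TPM in parental cells and 2.75 to 4.96 TPM in the SAP30-KO libraries. *KMT2A*, at 56.7 and 49.0 TPM in parental cells, was 15.8 to 27.7 TPM in the MLL1-KO libraries and 23.0 to 35.4 TPM in the SAP30-KO libraries. *SIN3B*, at 75.1 and 77.4 TPM in parental cells, was 43.5 to 50.2 TPM in libraries with a SIN3A/3B-DKO label. *SIN3A* RNA was higher in those libraries (55.1 to 62.5 TPM) than in parental ones (43.1 and 45.4 TPM), so its RNA level goes against the label. The study checked its knockout cells for protein by immunoblot, which was not analysed here. The RNA level alone does not decide whether SIN3A protein was lost. *CDH1*, the epithelial cadherin, was 1.07 and 1.25 TPM in parental cells and at most 0.282 TPM in every edited library, and whether this has a part in the results below was not tested. In bulk RNA, fewer expressing cells and less RNA per cell cannot be told apart.

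In parental cells the PRC2 genes stood in the order *EZH2* (109.5 and 109 TPM), *SUZ12* (77.6 and 74.4 TPM), *JARID2* (35.9 and 32.9 TPM), and *EZH1* (13.7 and 12.8 TPM), with no overlap between neighbours. Among the PRC1 genes *BMI1* was highest (89.7 and 87.0 TPM), followed by *RNF2* (30.3 and 29.4 TPM). *CBX8* (19.0 and 20.3 TPM) and *CBX2* (19.5 and 18.7 TPM) overlapped, *RING1* stood at 9.82 and 10.00 TPM, and *CBX7* was lowest (6.11 and 7.71 TPM). The spread across all 14 libraries, as the highest over the lowest TPM, was 2.23-fold for *CBX7*, 2.01-fold for *SUZ12*, 1.87-fold for *JARID2*, and 1.55-fold for *BMI1*. It was under 1.5-fold for the other 6 genes and smallest for *EZH2*, at 1.17-fold.

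**Figure D1:**
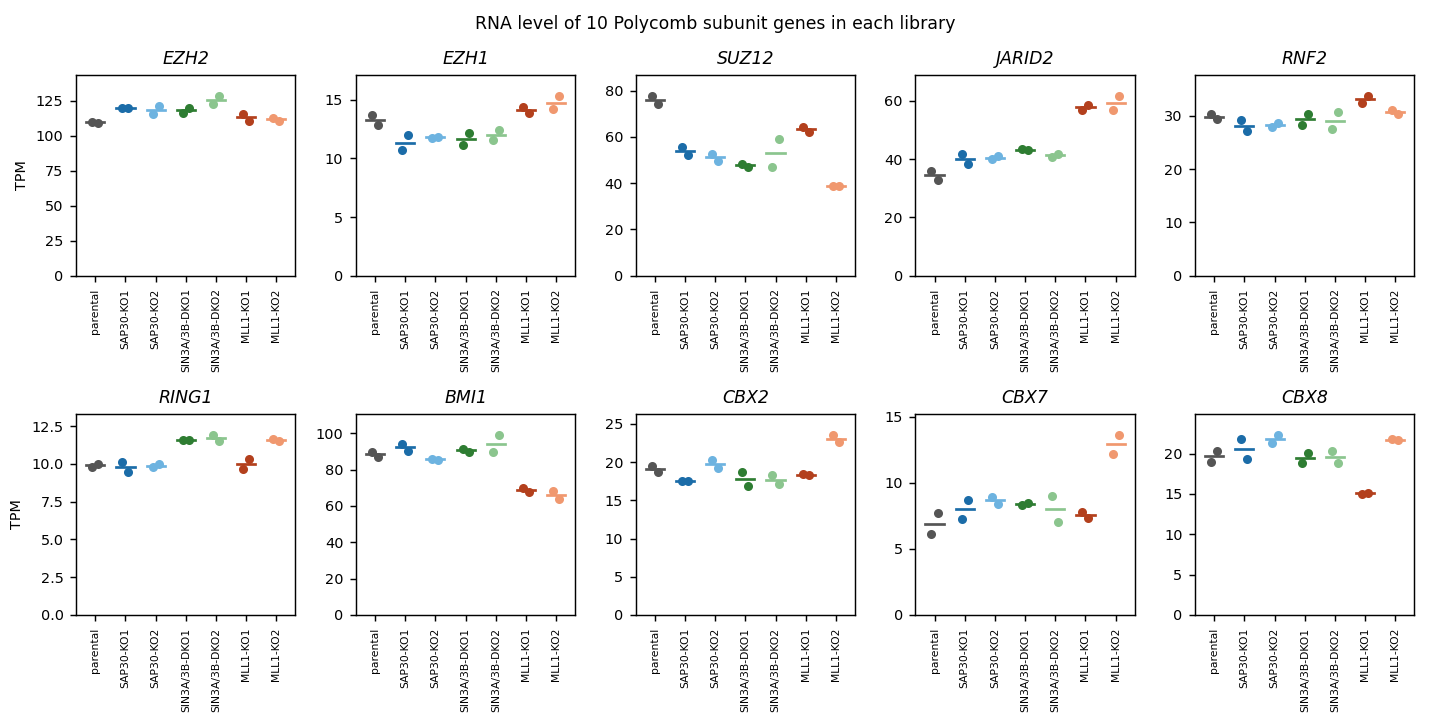
RNA level in TPM (y axis, from 0) of each of the 10 genes in the 7 conditions (x axis). Points are the 2 libraries of a condition and the bar is their mean. *SUZ12* in all 12 edited libraries lies below both parental libraries, *JARID2* in all 12 lies above them, and *CBX7* is highest in MLL1-KO2.

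Each line was then tested against parental cells with limma on log2(TPM + 0.5) over 13540 genes. A gene passed the test when its Benjamini-Hochberg adjusted p was below 0.05, and it was called when the change was also at least 1.5-fold. No member was called in either SAP30-KO line, where 15.7% and 15.6% of all genes tested were, or in SIN3A/3B-DKO2, where 13.6% were. In SIN3A/3B-DKO1, 1 of 10 was called (*SUZ12*), against 16.4% of all genes. In MLL1-KO1, 1 of 10 was called (*JARID2*), against 23.2% of all genes, and in MLL1-KO2, 3 of 10 were called (*SUZ12*, *JARID2*, and *CBX7*), against 25.2% of all genes. With no fold minimum, 4, 3, 4, 4, 4, and 6 of the 10 genes passed in the 6 lines. The shares of all genes that passed were 51%, 51.7%, 56.0%, 49.6%, 60.5%, and 64.2%, each above the members' share in that line. Both libraries of a line lay on one side of both parental libraries for 7, 8, 6, 6, 8, and 9 of the 10 genes, against 74.7%, 76.7%, 79.8%, 70.2%, 80.0%, and 81.9% of all genes. The median log2 fold change of the 10 genes was 0.02, 0.02, 0.01, 0.04, 0.03, and 0.14 in the same order, and that of all genes was 0.03, 0.01, 0.00, 0.01, -0.09, and -0.04.

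**Figure D2:**
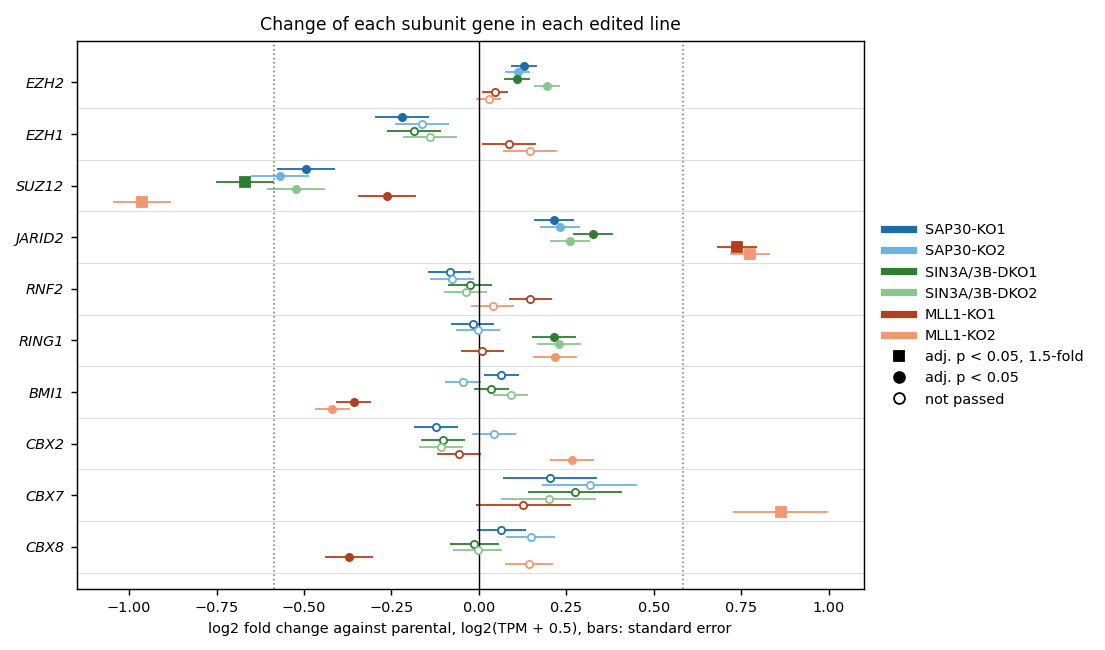
Log2 fold change of each gene against parental cells (x axis) in the 6 edited lines (colors), with bars for the standard error. Squares passed the test and reached 1.5-fold (dotted lines), filled circles passed the test only, and open circles did not pass. The squares are *SUZ12* in SIN3A/3B-DKO1 and MLL1-KO2, *JARID2* in both MLL1-KO lines, and *CBX7* in MLL1-KO2.

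*SUZ12*, the scaffold gene of PRC2, fell in all 6 lines. It was 55.4 and 52.2 TPM in SAP30-KO1, 52.5 and 49.6 TPM in SAP30-KO2, and 48.1 and 47.1 TPM in SIN3A/3B-DKO1. SIN3A/3B-DKO2 had 47.1 and 59.1 TPM, MLL1-KO1 had 64.3 and 62.3 TPM, and MLL1-KO2 had 38.9 and 38.5 TPM. No edited library reached the lower parental library, and the libraries of MLL1-KO2 were the lowest of all. In the 6 lines the log2 fold changes were -0.49, -0.57, -0.67, -0.52, -0.26, and -0.96 (SE 0.083), with limma adjusted p of 5.1e-04, 1.9e-04, 5.5e-05, 3.8e-04, 0.018, and 1.9e-06. The fall in MLL1-KO2 was 1.95-fold (95% interval of the log2 fold change -1.15 to -0.78), and the 2 MLL1-KO lines differed from each other by -0.70 (SE 0.083, adjusted p = 6.5e-05). SAP30-KO2 was close to the 1.5-fold line, and without its replicate 1 it was called (-0.61), as it was without parental replicate 2 (-0.60). SIN3A/3B-DKO2 was called without its replicate 2 (-0.68), the library at 59.1 TPM. The smaller fall in MLL1-KO1 no longer passed without parental replicate 1 (adjusted p = 0.098) or MLL1-KO1 replicate 2 (adjusted p = 0.086), nor with quantile (0.069) or median-ratio scaling (0.083).

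*SUZ12* shares sequence with its pseudogene *SUZ12P1*, and 7.94% of its 50-base stretches in the GENCODE transcripts also occur in other genes, so how reads were split between them is uncertain. *SUZ12P1* was 12.0 and 13.3 TPM in parental cells and 7.06 to 10.9 TPM in the edited libraries. Its log2 fold changes were -0.57, -0.52, -0.54, -0.51, -0.27, and -0.42 (SE 0.18) in the order given above, with limma adjusted p of 0.019, 0.029, 0.023, 0.033, 0.21, and 0.054.

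Genes near *SUZ12* on chromosome 17 (30264026 to 30328057, plus strand, GRCh37) were lower as well. Of its 50 nearest tested genes, 46, 45, 48, 47, 41, and 45 had a log2 fold change below 0 in the 6 lines. Their medians were -0.42, -0.39, -0.43, -0.40, -0.52, and -0.58. In MLL1-KO1 the genes closest to *SUZ12* did not share this shift. *UTP6*, whose lowest coordinate lies 76.1 kb below that of *SUZ12*, was at 0.30. *LRRC37B*, whose lowest coordinate lies 70.4 kb above that of *SUZ12*, was at 0.39. With the running median of 51 neighbouring genes taken out, *SUZ12* no longer passed in SAP30-KO1 (-0.09, adjusted p = 0.32), SAP30-KO2 (-0.18, adjusted p = 0.052), or SIN3A/3B-DKO2 (-0.12, adjusted p = 0.17). It stood at -0.23 in SIN3A/3B-DKO1 and -0.39 in MLL1-KO2, both below 1.5-fold, and at 0.25 in MLL1-KO1 (adjusted p = 0.0071), a change of sign. The difference between the MLL1-KO lines was still called with that adjustment, at -0.65. The number of gene copies in these lines was not measured, and its part in the shared shift was not tested.

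*JARID2* rose in all 6 lines, and most in the MLL1-KO lines. It was 41.7 and 38.3 TPM in SAP30-KO1 and 40.0 and 41.0 TPM in SAP30-KO2. SIN3A/3B-DKO1 had 43.3 and 43.1 TPM, and SIN3A/3B-DKO2 had 40.8 and 41.8 TPM. MLL1-KO1 had 56.9 and 58.5 TPM, and MLL1-KO2 had 56.9 and 61.6 TPM. The 4 MLL1-KO libraries were thus above all others, and every edited library was above both parental ones. The log2 fold changes were 0.21, 0.23, 0.33, 0.26, 0.74, and 0.78 (SE 0.057), with limma adjusted p of 0.0093, 0.0058, 6.3e-04, 0.003, 8.8e-07, and 5.4e-07, and the rise was 1.67-fold in MLL1-KO1 and 1.71-fold in MLL1-KO2. The mean of the MLL1-KO lines was above that of the SAP30-KO lines by 0.53 (SE 0.041, adjusted p = 5.1e-07) and above that of the SIN3A/3B-DKO lines by 0.46 (SE 0.041, adjusted p = 1.6e-06). The smaller rises in the SAP30-KO lines depended on single libraries. SAP30-KO1 no longer passed without parental replicate 2 (adjusted p = 0.088) or its own replicate 1 (0.086), and SAP30-KO2 without parental replicate 2 (0.059).

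The genes around *JARID2* on chromosome 6 (15246300 to 15522273, plus strand, GRCh37) went the other way in the MLL1-KO lines. Of its 50 nearest tested genes, 43 in MLL1-KO1 and 38 in MLL1-KO2 had a log2 fold change below 0, with medians of -0.50 and -0.38. In the other 4 lines these medians were between -0.03 and 0.06. With the running median taken out, *JARID2* stood at 1.19 in MLL1-KO1 and 1.14 in MLL1-KO2.

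**Figure D3:**
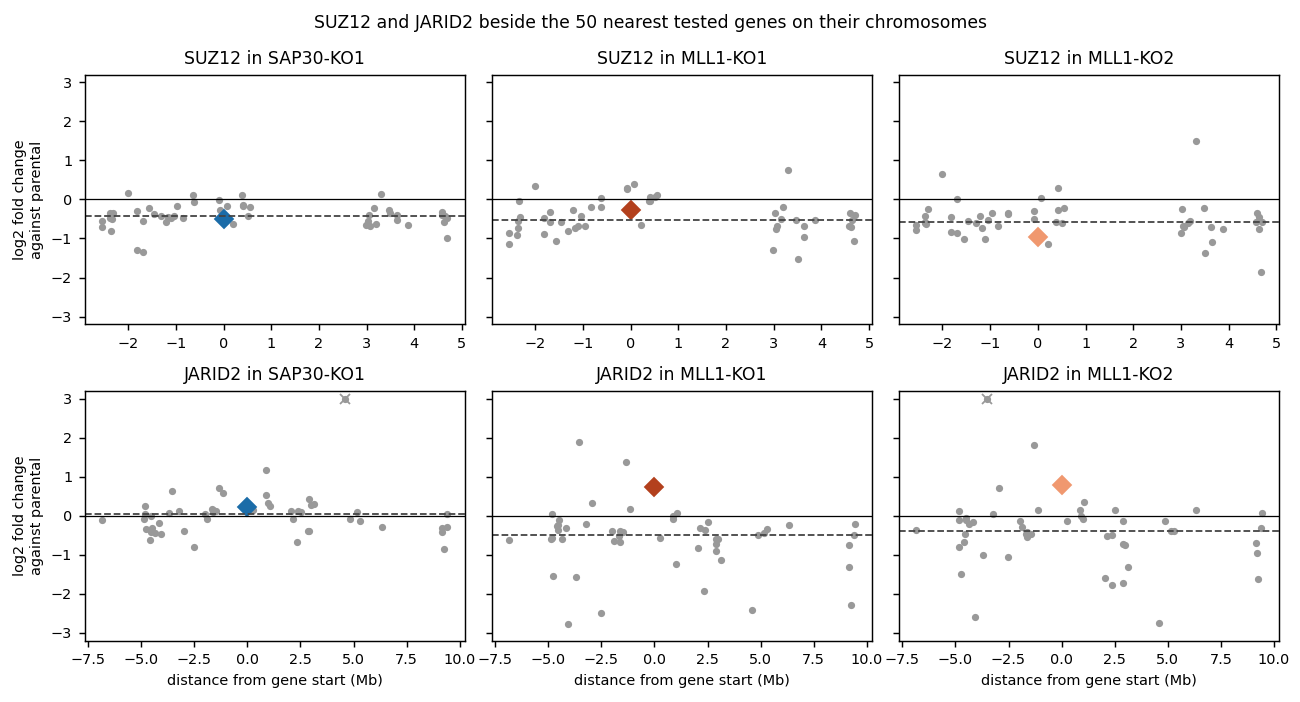
Log2 fold change against parental cells (y axis) of *SUZ12* (top row, diamond) and *JARID2* (bottom row, diamond) and of the 50 nearest tested genes on the same chromosome (grey points), by distance from the gene's start in Mb (x axis), in SAP30-KO1, MLL1-KO1, and MLL1-KO2. The dashed line is the median of the grey points, and crosses mark points beyond the axis. The grey points around *SUZ12* have medians of -0.42, -0.52, and -0.58, whereas *JARID2* in the MLL1-KO lines (0.74 and 0.78) lies above medians of -0.50 and -0.38.

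Before any adjustment for neighbouring genes, the catalytic PRC2 genes moved little against parental cells. *EZH2* was 109.5 and 109 TPM in parental cells and 111 to 128 TPM in the edited libraries, all of them higher. It passed the test in the SIN3 complex lines, with log2 fold changes of 0.13, 0.11, 0.11, and 0.20 (SE 0.037, limma adjusted p 0.013, 0.026, 0.027, and 0.0011). In the MLL1-KO lines the changes were 0.05 and 0.03, with 95% intervals of -0.03 to 0.13 and -0.05 to 0.11. With the running median taken out *EZH2* stood at 0.17 and 0.14 in these 2 lines. The *EZH2* changes other than that in SIN3A/3B-DKO2 no longer passed when certain single libraries were left out: parental replicate 2 (adjusted p = 0.053) or its own replicate 1 (0.055) for SAP30-KO1, either parental replicate (0.082 and 0.088) or its own replicate 2 (0.20) for SAP30-KO2, and either parental replicate (0.083 and 0.087) or its own replicate 2 (0.15) for SIN3A/3B-DKO1. *EZH1* was 10.7 to 12.4 TPM in the 8 libraries of SIN3 complex lines, below both parental libraries (13.7 and 12.8 TPM), and 13.9 to 15.3 TPM in the 4 MLL1-KO libraries, above both. Its log2 fold change passed in SAP30-KO1 only, at -0.22 (SE 0.077, adjusted p = 0.034), but not without parental replicate 1 (0.18) or SAP30-KO1 replicate 1 (0.22), and the other 5 were between -0.19 and 0.15. The 50 genes nearest to *EZH1* had a median of -0.24 in SAP30-KO1, 38 of them below 0, and with the running median taken out *EZH1* stood at 0.04 there (adjusted p = 0.68). In MLL1-KO1 and MLL1-KO2 these nearest genes had medians of -0.52 and -0.35. With the running median taken out *EZH1* stood higher in both, at 0.56 and 0.49. The difference between genotypes itself passed, with the MLL1-KO lines above the SAP30-KO lines by 0.31 (SE 0.055, adjusted p = 4.5e-04) and above the SIN3A/3B-DKO lines by 0.28 (SE 0.055, adjusted p = 8.8e-04). *EZH2* made up 87.8% to 91.8% of the summed TPM of the pair in every library.

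The balance between PRC2 transcripts differed between libraries. The ratio of *SUZ12* to *EZH2* TPM was 0.709 and 0.680 in parental cells and 0.346 to 0.562 in the edited libraries. The ratio of *JARID2* to *SUZ12* TPM was 0.462 and 0.443 in parental cells, 0.707 to 0.940 in the libraries of MLL1-KO1 and the SIN3 complex lines, and 1.46 and 1.60 in MLL1-KO2. The ratio of *SUZ12* to *EED* TPM, *EED* being another core subunit gene described below, was 1.08 and 1.07 in parental cells, 1.48 and 1.41 in MLL1-KO1, and 0.614 to 0.897 in the other edited libraries, so MLL1-KO1 moved the other way for this pair. Only in MLL1-KO2 was there more *JARID2* than *SUZ12* RNA per length.

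Of the RING genes of PRC1, *RNF2* did not pass in any line against parental cells. It ranged from 27.2 to 33.7 TPM across all libraries, with log2 fold changes from -0.08 to 0.15 (SE 0.062). Between genotypes, the MLL1-KO lines were above the SAP30-KO lines by 0.17 (SE 0.044, limma adjusted p = 0.0044). They were above the SIN3A/3B-DKO lines by 0.12 (SE 0.044, adjusted p = 0.025), which did not pass under every setting. With the running median taken out *RNF2* stood at 0.32 in MLL1-KO1 and 0.20 in MLL1-KO2. *RING1* was 11.5 to 11.9 TPM in the SIN3A/3B-DKO and MLL1-KO2 libraries and 9.47 to 10.3 TPM in the other 8 libraries, with no overlap between these ranges. It rose by 0.22, 0.23, and 0.22 on the log2 scale in SIN3A/3B-DKO1, SIN3A/3B-DKO2, and MLL1-KO2 (SE 0.062, limma adjusted p 0.013, 0.011, and 0.01). The SIN3A/3B-DKO lines were above the SAP30-KO lines by 0.23 (SE 0.044, adjusted p = 0.0013), and MLL1-KO2 was above MLL1-KO1 by 0.21 (SE 0.062, adjusted p = 0.02). The last difference no longer passed without MLL1-KO1 replicate 1 (0.13) or without either MLL1-KO2 library (0.084 and 0.068). The rise of *RING1* no longer passed in either SIN3A/3B-DKO line without parental replicate 1 (0.059 and 0.052), or without either library of SIN3A/3B-DKO1 (0.053 and 0.058) in that line. *RING1*, once the running median was taken out, stood at 0.04 in SIN3A/3B-DKO1 (adjusted p = 0.68) and 0.16 in MLL1-KO2 (0.057), neither passing, and at 0.18 in SIN3A/3B-DKO2 (0.046), while the difference between the MLL1-KO lines was 0.08 (0.39). *RNF2* made up 69.9% to 77.1% of the summed TPM of the pair.

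*BMI1*, which with *PCGF2* encodes the PCGF proteins of canonical PRC1, fell in both MLL1-KO lines and did not pass in the others. It was 85.4 to 98.8 TPM in the SIN3 complex lines, a range that holds both parental values. It was 70.1 and 67.5 TPM in MLL1-KO1 and 68.1 and 63.8 TPM in MLL1-KO2, below all other libraries. The log2 fold changes were -0.36 and -0.42 (SE 0.050, limma adjusted p 1.0e-04 and 2.7e-05), under 1.5-fold, and the MLL1-KO lines were below the SAP30-KO lines by -0.40 (SE 0.036, adjusted p = 2.0e-06) and below the SIN3A/3B-DKO lines by -0.45 (SE 0.036, adjusted p = 7.0e-07). After the running median was taken out, these differences were -0.21 and -0.24, and *BMI1* stood at -0.22 in MLL1-KO1 and -0.29 in MLL1-KO2, all still passing. *BMI1* overlaps the readthrough gene *COMMD3-BMI1*. In every library the reads of *COMMD3* and *BMI1* together came to 117% to 121% of those of the readthrough gene, so the value of *BMI1* cannot be separated from it and is uncertain. *COMMD3-BMI1* had log2 fold changes of -0.31 and -0.31 in the MLL1-KO lines (SE 0.036, adjusted p 2.3e-05 and 2.0e-05), while *COMMD3* was at -0.11 and 0.04 (adjusted p 0.21 and 0.71).

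The 3 CBX genes, whose products read methylated lysine 27, differed chiefly between the MLL1-KO lines. *CBX7* was 12.2 and 13.6 TPM in MLL1-KO2, above the range of 6.11 to 9.02 TPM in the other 12 libraries. It rose there by 0.86 on the log2 scale, which is 1.82-fold (SE 0.14, limma adjusted p = 2.0e-04), and MLL1-KO2 was above MLL1-KO1 by 0.74 (SE 0.14, adjusted p = 0.0013). The 50 nearest genes had a median of 0.09 in MLL1-KO2. The closest of them on the side of its 3′ end had larger values. Distances here are between lowest coordinates, which for *CBX7*, on the minus strand, is the 3′ end. *APOBEC3C*, *APOBEC3D*, *APOBEC3F*, *APOBEC3G*, and *APOBEC3H*, at 22.9 to 105.9 kb and chosen after their values were seen, were at 1.51 to 3.22 in MLL1-KO2. In MLL1-KO1, where *CBX7* was at 0.13, they were at 1.18 to 2.71. The changes of *CBX7* in the other 5 lines were 0.13 to 0.32 and did not pass. *CBX7* rested on 174 to 387 reads a library, and 19.44% of its 50-base stretches also occur in other annotated genes, mostly 1 that overlaps it.

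*CBX8* was 15 and 15.1 TPM in MLL1-KO1, below the range of 18.8 to 22.3 TPM in all other libraries, and fell by 0.37 on the log2 scale (SE 0.070, limma adjusted p = 8.2e-04). In MLL1-KO2 it was 21.8 and 21.7 TPM, at 0.14 (adjusted p = 0.095), and the 2 lines differed by 0.51 (SE 0.070, adjusted p = 1.7e-04). *CBX2*, its neighbour on chromosome 17, was 23.5 and 22.6 TPM in MLL1-KO2, above the range of 16.9 to 20.2 TPM elsewhere, and rose by 0.27 (SE 0.063, adjusted p = 0.0034). The 50 genes nearest to *CBX2* and *CBX8* had medians of 0.23 and 0.25 in MLL1-KO2 and of -0.11 and -0.07 in MLL1-KO1, and with the running median taken out *CBX2* stood at 0.04 and *CBX8* at -0.09 in MLL1-KO2, and the difference of *CBX8* between the MLL1-KO lines was 0.20 (adjusted p = 0.032). Among 5 CBX genes, *CBX6* held the largest share of the summed TPM in every library (43.8% to 51.5%), and *CBX7* held 6.69% and 7.46% in MLL1-KO2 against 3.83% to 5.85% elsewhere.

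**Figure D4:**
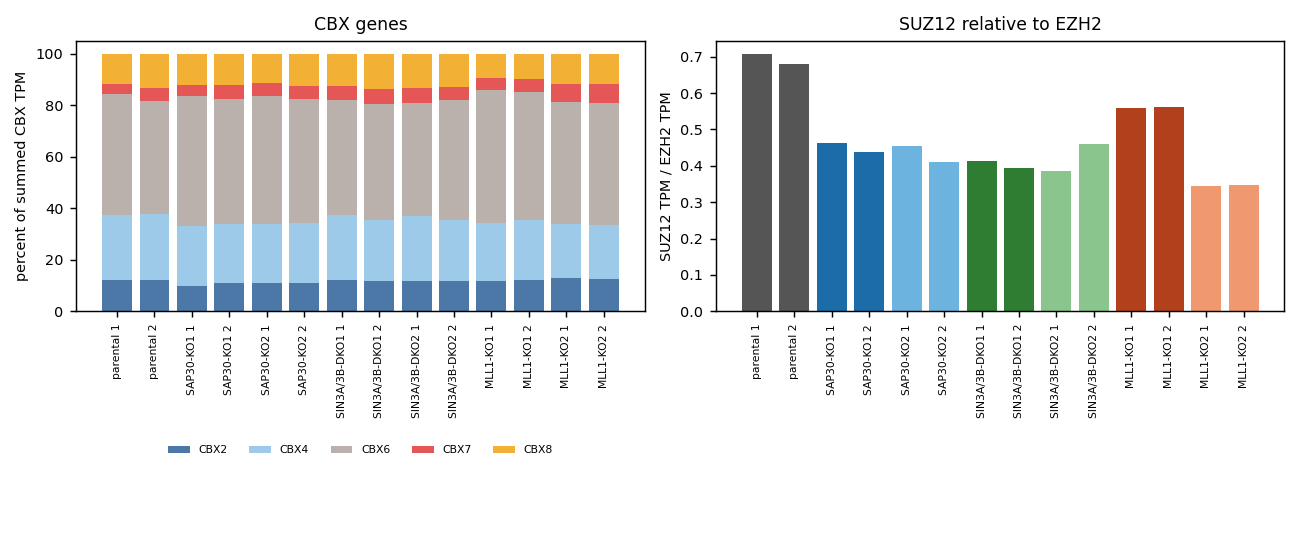
Left, share of each of 5 CBX genes in their summed TPM (y axis, percent) in each of the 14 libraries (x axis). Right, ratio of *SUZ12* to *EZH2* TPM in the same libraries, which is 0.709 and 0.680 in parental cells and 0.346 to 0.562 in the edited libraries.

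Direct comparisons between the lines of a genotype called no member in the SAP30-KO pair (0.148% of all genes called) or in the SIN3A/3B-DKO pair (2.23%), and no member passed limma's test without the fold minimum either (0.524% and 12.5% of all genes). Between the MLL1-KO lines 2 of 10 were called, *SUZ12* and *CBX7*, against 10.4% of all genes, and 5 passed the test, against 42.1%. Between genotypes none of the 10 was called for SIN3A/3B-DKO against SAP30-KO, MLL1-KO against SAP30-KO, or MLL1-KO against SIN3A/3B-DKO, where 7.47%, 19.8%, and 19.9% of all genes were. Without the fold minimum 1, 9, and 8 passed, against 48.6%, 67.8%, and 67.8% of all genes. For *SUZ12* none of these 3 differences passed, and their 95% intervals were -0.19 to 0.07, -0.21 to 0.05, and -0.15 to 0.11. The mean of the MLL1-KO lines joins changes of -0.26 and -0.96 against parental cells, in lines that differed from each other. These intervals hold the spread between libraries and not that between lines, so they do not show equal *SUZ12* levels across genotypes.

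The genes whose log2 levels followed *SUZ12* most closely over the 14 libraries were *HSDL2* (Pearson r = 0.942), *HN1* (0.942), and *ANP32B* (0.939). Those closest to *JARID2* were *TNC* (0.982), *CLMN* (0.976), and *BZRAP1* (0.974). The libraries fall into 7 conditions of 2, so these values describe shared differences between conditions and carry no test.

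A wider list of 45 other Polycomb genes was examined beside the members. Of these 44 were found by name, and 42 were tested, since *AUTS2* and *ASXL3* were at or near 0 in every library. In the 6 lines 0, 1, 3, 1, 5, and 5 of them were called, of which 0, 1, 3, 1, 1, and 2 were higher. These are 0%, 2.4%, 7.1%, 2.4%, 11.9%, and 11.9% of the 42, below the shares of all genes called (15.7%, 15.6%, 16.4%, 13.6%, 23.2%, and 25.2%). Without the fold minimum 19, 22, 18, 18, 24, and 26 passed, or 45.2%, 52.4%, 42.9%, 42.9%, 57.1%, and 61.9%, against 51%, 51.7%, 56.0%, 49.6%, 60.5%, and 64.2% of all genes. Their median log2 fold changes were 0.04, 0.07, -0.02, -0.01, -0.09, and -0.03, close to those of all genes.

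Among the PRC2 partners, *EPOP* (listed as *C17orf96*), an accessory subunit gene of PRC2, fell in both MLL1-KO lines, from 17.1 and 15.9 TPM in parental cells to 6.02 to 6.50 TPM. Its log2 fold changes were -1.33 and -1.31 (SE 0.066, limma adjusted p 2.4e-08 and 2.3e-08), while they were between -0.20 and 0.09 in the other lines. *EED*, the partner of SUZ12 that binds methylated lysine 27, was 71.9 and 69.3 TPM in parental cells and 43.3 and 44 TPM in MLL1-KO1, a log2 fold change of -0.69 (adjusted p = 5.4e-06) against -0.22 in MLL1-KO2. *EED* and *SUZ12* thus had their largest changes in different MLL1-KO lines, and for *EED* the lines differed by 0.47 (adjusted p = 2.3e-04). With the running median of its neighbours taken out, however, *EED* stood at 0.05 in MLL1-KO1 (adjusted p = 0.49) and 0.07 in MLL1-KO2 (adjusted p = 0.33), a change of sign. The histone chaperone gene *RBBP4* fell in all 6 lines, and its log2 fold changes lay between -0.50 and -0.34, without reaching 1.5-fold. *EED* and *RBBP4* were chosen after their values were seen.

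Among the PRC1 partners, *BCOR*, a scaffold of variant PRC1, fell from 20.4 and 19.5 TPM in parental cells to 8.10 to 9.68 TPM in the MLL1-KO libraries. Its log2 fold changes were -1.19 and -1.07 (SE 0.073, limma adjusted p 1.4e-07 and 2.9e-07), and it was 18.4 to 21.4 TPM in all other edited libraries. *PCGF2* was 86.8 and 81.4 TPM in parental cells and 57.5 to 71.5 TPM in the edited libraries, and its log2 fold changes of -0.44 to -0.25 passed in all 6 lines without reaching 1.5-fold. It stood between -0.08 and 0.20 once the running median was taken out, and turned higher in both SAP30-KO and both MLL1-KO lines. It was chosen after its values were seen. *DCAF7* passed in all 6 lines and was called in the MLL1-KO lines, at -0.67 and -0.63. After the same adjustment it was at -0.25 and -0.30 there, no longer called, and its direction turned in both SAP30-KO lines and SIN3A/3B-DKO2. *SCML2* was 6.92 and 6.80 TPM in parental cells and 11.1 to 13 TPM in the SIN3A/3B-DKO libraries, at 0.67 and 0.87 (SE 0.093, adjusted p 1.2e-04 and 2.2e-05). The SAP30-KO libraries were above parental cells too, at 9.71 to 10.6 TPM, so the rise was not particular to the SIN3A/3B-DKO lines. In MLL1-KO1 *SCML2* fell to 4.09 and 5.10 TPM, whereas MLL1-KO2 had 6.86 and 6.43 TPM, close to parental cells. The mean of these 2 unlike lines was below that of the SIN3A/3B-DKO lines by -1.06 (limma adjusted p = 9.1e-08).

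Outside the complexes, *KDM6B*, which encodes a demethylase that removes methyl groups from lysine 27, was 8.17 and 8.11 TPM in parental cells and 9.59 to 15.1 TPM in every edited library. It was called in SIN3A/3B-DKO1 (0.72), MLL1-KO1 (0.67), and MLL1-KO2 (0.79), with limma adjusted p of 2.4e-05, 2.9e-05, and 7.4e-06 (SE 0.080), and it passed in the other 3 lines at 0.26 to 0.54. With the running median taken out only 1 gene of the wider list was called in SIN3A/3B-DKO1, so *KDM6B* and *SCML2* were not both called there. The value of 0.26, in SIN3A/3B-DKO2, no longer passed without either parental library (0.068 and 0.078) or its own replicate 1 (0.092).

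**Figure D5:**
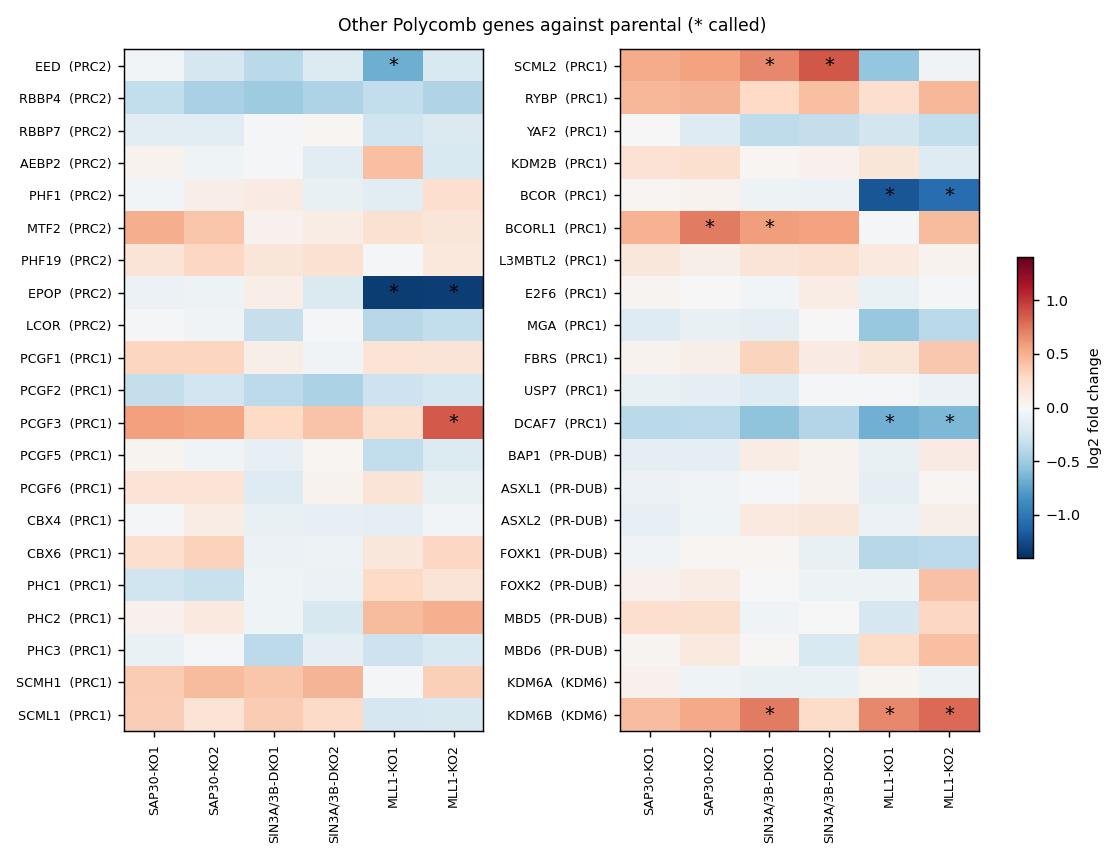
Log2 fold change against parental cells (color, scale at right) of the 42 other Polycomb genes tested (rows) in the 6 edited lines (columns), grouped by complex. Stars mark genes called with limma. The deepest blue cells are *EPOP* and *BCOR* in both MLL1-KO lines, and the deepest red ones *SCML2* in SIN3A/3B-DKO2 and *PCGF3* in MLL1-KO2 (0.87 and 0.86), the latter gene chosen after its values were seen.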

How the data were processed

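RNA-Seq libraries of 7 conditions, 2 each, were grouped by the submitters' labels, and all 14 were used. Per the labels and methods, the authors used a KAPA mRNA library kit, and the submitters' processing notes name FastQC 0.11.2, TopHat, featureCounts, and hg19 (versions of the latter tools are not given in the sources used here). The deposited values are named RPKM but add up to 1000000 in each library, so they were used as TPM, and the test written for RPKM was kept. TPM are shares of a library, so a gene can change by others changing, and total RNA per cell is not seen. Whole reads were recovered for 18519 of 18519 genes above 0 (100.0%, tolerance 0.02 reads). A spreadsheet had turned 28 gene names into dates.

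The 13540 genes that reached 1 TPM in 2 or more libraries were fitted as log2(TPM + 0.5) by limma 3.58.1 (R 4.3.3), with 1 mean per condition and a variance trend (7 residual and 3.6 prior degrees of freedom), and p-values were adjusted by Benjamini-Hochberg over all of them within each comparison. The procedure was tested on simulated data. Neighbouring genes were placed with GENCODE 44 on GRCh37 (98.2% of those tested), and a running median was taken over 51 genes. Promoters came from RefSeq (GRCh38.p14). Python 3.11.15 with pandas 2.3.3 was used for counts and plots.

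The members and lists were chosen with earlier results of these data known. Genes named were all members, genes of the wider and developmental lists called in both lines of a genotype, the targeted genes, and the 3 genes most like each member called in at least 2 lines. Others are marked as chosen after their values were seen. A gene of the developmental list is not reported here. Alternatives were pseudocounts of 0.1 and 1, no filter, quantile and median-ratio scaling, a fold minimum of 2 or none, fits of the compared libraries alone, voom on recovered reads, the replicate block, the running median, and leaving out each library. Protein, ChIP-Seq, and ATAC-seq data were not analysed here.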

Additional observations from a re-analysis of the deposited data

Results flagged for a closer look

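Among the named genes, 7 differences between lines of the same genotype passed limma's test of the difference itself (Benjamini-Hochberg adjusted p below 0.05) and reached 1.5-fold. Between the MLL1-KO lines, MLL1-KO2 minus MLL1-KO1 was -0.70 for *SUZ12* and 0.74 for *CBX7*, the values described above. The same difference was -2.57 for *FOXA2*, -1.79 for *CCND2*, -1.59 for *GATA2*, and -0.78 for *MSX2*, which encode developmental transcription factors and, for *CCND2*, a D-type cyclin. Between the SIN3A/3B-DKO lines, DKO2 minus DKO1 was 0.94 for *MSX2*, whose levels were 1.97 and 2.63 TPM in DKO1 and 4.68 and 5.00 TPM in DKO2. *CCND2* was low throughout, at 1.60 and 1.84 TPM in parental cells and 0 and 0.0213 TPM in MLL1-KO2, which is 0 and 1 reads, so the size of its fold change depends on the pseudocount. Each difference rests on 2 libraries a line.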

How the results depend on the processing

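Over the 25 alternative settings, the called members stayed called except as follows. *SUZ12* in MLL1-KO2 was not called with the running median (-0.39). With no fold minimum 4, 3, 4, 4, 4, and 6 members passed in the 6 lines in the order used above, and 19, 22, 18, 18, 24, and 26 genes of the wider list. With a 2-fold minimum 0 members were left in SIN3A/3B-DKO1, MLL1-KO1, and MLL1-KO2, and the wider list had 0 in SAP30-KO2 and both SIN3A/3B-DKO lines and 2 in each MLL1-KO line. With median-ratio scaling 1 member was called in SAP30-KO2. With the running median taken out 0 members were called in SIN3A/3B-DKO1, and the wider list had 0 in SAP30-KO2, 1 in SIN3A/3B-DKO1, and 3 in each MLL1-KO line. With a pseudocount of 0.1, and with voom, the wider list had 1 and 2 in the SAP30-KO lines, and voom called 2 in SIN3A/3B-DKO2. Between lines of a genotype 5 member differences passed with no fold minimum and 0 with a 2-fold minimum. Between genotypes 18 passed with no fold minimum, and 1 was called with quantile normalization, 1 with median-ratio scaling, and 2 with the running median. Leaving out 1 library at a time gave 0 to 0, 0 to 1, 1 to 1, 0 to 1, 1 to 1, and 3 to 3 members called in the order of lines above, 0 to 2, 1 to 2, 2 to 3, 1 to 2, 5 to 6, and 5 to 5 of the wider list, 2 to 2 between lines, and 0 to 0 between genotypes. Libraries left alone in a condition were assumed to vary like the others.

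Among changes that had passed the test, the direction turned in 23 cases, 21 of them with the running median. With it *SUZ12* stood at 0.25 in MLL1-KO1, *EZH1* at 0.0403 in SAP30-KO1, and *CBX2* at -0.0008 between the MLL1-KO lines. *EZH2* was at 0.0704 for MLL1-KO against SAP30-KO and 0.0021 against SIN3A/3B-DKO, and *RING1* at 0.0139 for MLL1-KO against SIN3A/3B-DKO. *KMT2A* was at 0.19 in SAP30-KO2, *EPOP* at 0.15 in SIN3A/3B-DKO2, and *DCAF7* at 0.0232 and 0.0569 in the SAP30-KO lines and 0.0457 in SIN3A/3B-DKO2. *EED* was at 0.20 in SAP30-KO2, 0.0528 in MLL1-KO1, and 0.0724 in MLL1-KO2, *PCGF2* at 0.0516 and 0.12 in the SAP30-KO lines and 0.20 and 0.18 in the MLL1-KO lines, *PCGF3* at -0.0251 in SIN3A/3B-DKO1, and *TOP2A* at 0.12 in SAP30-KO2 and 0.018 in SIN3A/3B-DKO2. The running median also takes out any change that neighbouring genes share. *EZH2* for MLL1-KO against SAP30-KO was 0.0201 with median-ratio scaling, and *RING1* for MLL1-KO against SIN3A/3B-DKO was 0.0153 with quantile normalization. Quantile normalization moved the median of all genes in MLL1-KO1 by 0.14 and in MLL1-KO against SAP30-KO by 0.11, and the share of lower genes among those called from 70.3% to 51.6% in MLL1-KO1, from 59.3% to 48.4% in MLL1-KO2, from 31.4% to 43.8% between these lines, from 68.0% to 50.5% for MLL1-KO against SAP30-KO, and from 65.3% to 51.5% for MLL1-KO against SIN3A/3B-DKO.

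The replicate numbers are shared by the conditions, but same-numbered libraries did not deviate together (mean correlation across genes 0.01, from -0.07 to 0.08 over 21 pairs of conditions), so they share only a number. With the replicate block 0, 0, 1, 0, 1, and 3 members were called in the 6 lines, and no count of calls moved.

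With 2 libraries a condition the 95% interval of a member's log2 fold change spanned from 0.16 to 0.60, widest for *CBX7*, so the smallest change that could be detected differed between members.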

Other observations

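A list of 39 developmental regulators, chosen as genes often held by Polycomb in other cells, was set beside the subunit genes. Polycomb binding at them was not measured here, and some were well expressed in parental cells, such as *FOXA2* at 72.4 and 74.5 TPM. Of these, 22 were found in the table by name, and 11 passed the filter on low values, some of them only because they were high in some lines, so counts over them are a description. In the 6 lines 8, 7, 5, 4, 6, and 6 were called with limma, of which 3, 2, 0, 0, 0, and 0 were higher, beside 15.7%, 15.6%, 16.4%, 13.6%, 23.2%, and 25.2% of all genes called. *GATA6* fell in every line, from 25.7 and 23.7 TPM in parental cells to 9.43 to 14.7 TPM in the SIN3 complex lines and 3.84 to 5.15 TPM in the MLL1-KO libraries. *GATA2* fell in every line too, with log2 fold changes of -0.67 to -0.70 in the SIN3 complex lines and of -2.21 and -3.79 in MLL1-KO1 and MLL1-KO2. *IRX3* fell in every line, with log2 fold changes of -1.55 to -2.40. *FOXA2* was 65.7 to 84.1 TPM in parental cells and the SIN3 complex lines, 15.1 and 14.3 TPM in MLL1-KO1, and 1.70 and 2.45 TPM in MLL1-KO2. The higher ones were *PAX9* and *FOXD3* in both SAP30-KO lines and *WT1* in SAP30-KO1, all at or below 2.47 TPM in those libraries. *FOXD3* reached 1 TPM only in SAP30-KO libraries, so it passed the filter only through the lines where it was higher. Its values there are a description and not a test. Single libraries decided most of these calls. *WT1* was no longer called without parental replicate 1 (adjusted p = 0.11) or SAP30-KO1 replicate 1 (0.097), *PAX9* without parental replicate 2 (0.50 and 0.57 on the log2 scale in the SAP30-KO lines), and *FOXD3* in SAP30-KO2 without parental replicate 2 (0.14) or its own replicate 2 (0.11).

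Of 15 proliferation genes, all tested, 0, 0, 2, 0, 1, and 1 were called in the same order of lines, all lower. This is 0%, 0%, 13.3%, 0%, 6.7%, and 6.7% of them, against 15.7%, 15.6%, 16.4%, 13.6%, 23.2%, and 25.2% of all genes. Without the fold minimum 26.7%, 60%, 60%, 33.3%, 60%, and 66.7% passed, against 51%, 51.7%, 56.0%, 49.6%, 60.5%, and 64.2% of all genes. Of those that passed, 2, 5, 0, 1, 5, and 4 were higher and 2, 4, 9, 4, 4, and 6 lower. The medians of the list were -0.01, 0.00, -0.24, -0.05, 0.09, and 0.06. *TOP2A* was called in SIN3A/3B-DKO1, MLL1-KO1, and MLL1-KO2, at -0.79, -0.67, and -0.93, and *CCNE2* in SIN3A/3B-DKO1, at -0.72. With the running median taken out *TOP2A* was called in MLL1-KO2 only, and *CCNE2*, at -0.34, in no line. These 2 and *WT1* were chosen after their values were seen.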
